A study of Mus musculus with 12 samples.

Results

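Potassium channel genes were followed in the nucleus accumbens of mice given saline or cocaine. The set held the genes whose symbol in the array's probe-to-gene table starts with Kcn, apart from 1 gene that the rule left out. Of 88 such genes on the array, with 173 probes, 68 had a probe with a detection p under 0.05 on at least 3 of the 12 arrays. These 68 genes are described here, each by its brightest such probe, and they stand within 25478 probes of 12732 genes kept by the same filter. Detection on all 12 arrays was found for 48 of them, on 3 to 11 arrays for 20, and on under 6 arrays for 11. The other 20 genes had no kept probe. Of these, 16 were detected on 0 arrays, 1 on 1 array and 3 on 2 arrays, while 6 genes passed with 3 arrays. The 20 were Kcna7, Kcne3, Kcng1, Kcng3, Kcnh8, Kcnj1, Kcnj5, Kcnj9, Kcnj15, Kcnk7, Kcnk9, Kcnk15, Kcnk16, Kcnk18, Kcnmb1, Kcnmb2, Kcnmb4os1, Kcnn4, Kcnt2 and Kcnv2.

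Potassium channels let potassium ions leave the cell and so bring the membrane back towards rest after an action potential. The voltage-gated (Kv) channels open on depolarisation, the inward rectifiers (Kir) and the K2P leak channels hold the resting potential, and other channels open on intracellular calcium or sodium. In medium spiny neurons, the projection neurons of the striatum, Kir channels keep the hyperpolarised resting state and Kv channels with fast inactivation delay the first spike. Changes in such currents in the accumbens have been studied as part of the response to repeated cocaine.

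The tissue was bilateral punches of accumbens from C57BL/6J mice aged 8 to 10 weeks, and each array carried RNA pooled from 4 mice. All mice had 15 daily intraperitoneal injections and were killed 1 h after the last. The saline group had 15 of saline. The acute group had 14 of saline and then 1 of cocaine-HCl at 20 mg/kg. In the repeated group, 7 injections of saline came before 8 of cocaine at that dose. The withdrawal group had 7 of cocaine, 7 of saline and 1 challenge injection of cocaine. Each group held 3 arrays from 12 mice. All 3 cocaine groups therefore had cocaine 1 h before death, no group was taken drug-free after repeated cocaine, and the series title names the histone methyltransferase G9a although no label names animals in which it was altered. The arrays were labelled as independent biological replicates.

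Each array detected 22189 to 23803 of its 45281 probes. Of 12 markers of medium spiny neurons, 9 were measured, all on 12 arrays, and their summed intensity lay between 48191 and 55476 units, so the tissue expressed the genes of its label. Markers of cortical neurons (4 of 6 measured) summed to 332 to 1875 units, and those of choroid plexus and ependyma (4 of 5) to 88.3 to 1827. In bulk tissue, fewer cells of a type and less RNA per cell cannot be told apart.

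Levels are log2 of background-subtracted intensity floored at 10 units, so that 3.32 is the floor. They are given in the order saline, acute, repeated and withdrawal, arrays numbered 1 to 3 in each, and the level of one gene's probe is not set against another's. Differences are from limma with their standard error. A gene met the series criteria where its difference reached 1.3-fold at an unadjusted p under 0.05, the thresholds of the series text. Adjusted p-values are over all 25478 probes.

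No potassium channel gene passed an adjusted p of 0.05 in limma in any of the 7 comparisons, nor in the F test over the 4 groups. Over all probes, 0 passed in 6 of the comparisons (0%) and in the F test, and 1 (0.00392%) did in repeated against acute. At an unadjusted p under 0.05, 1 of the 68 genes was counted for acute against saline (4.44% of all probes), 3 for repeated against saline (8.89%) and 3 for withdrawal against saline (7.81%). The corresponding counts were 3 for repeated against acute (5.41%), 3 for withdrawal against acute (5.65%), 0 for withdrawal against repeated (2.11%) and 4 for the mean of the 3 cocaine groups against saline (8.36%). None of these counts exceeded what the share among all probes gives for 68 genes. The lowest p of the F test was 0.00439 for Kcnd3, with an adjusted p of 0.748, and the highest was 0.999 for Kcnj4.

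**Figure D1:**
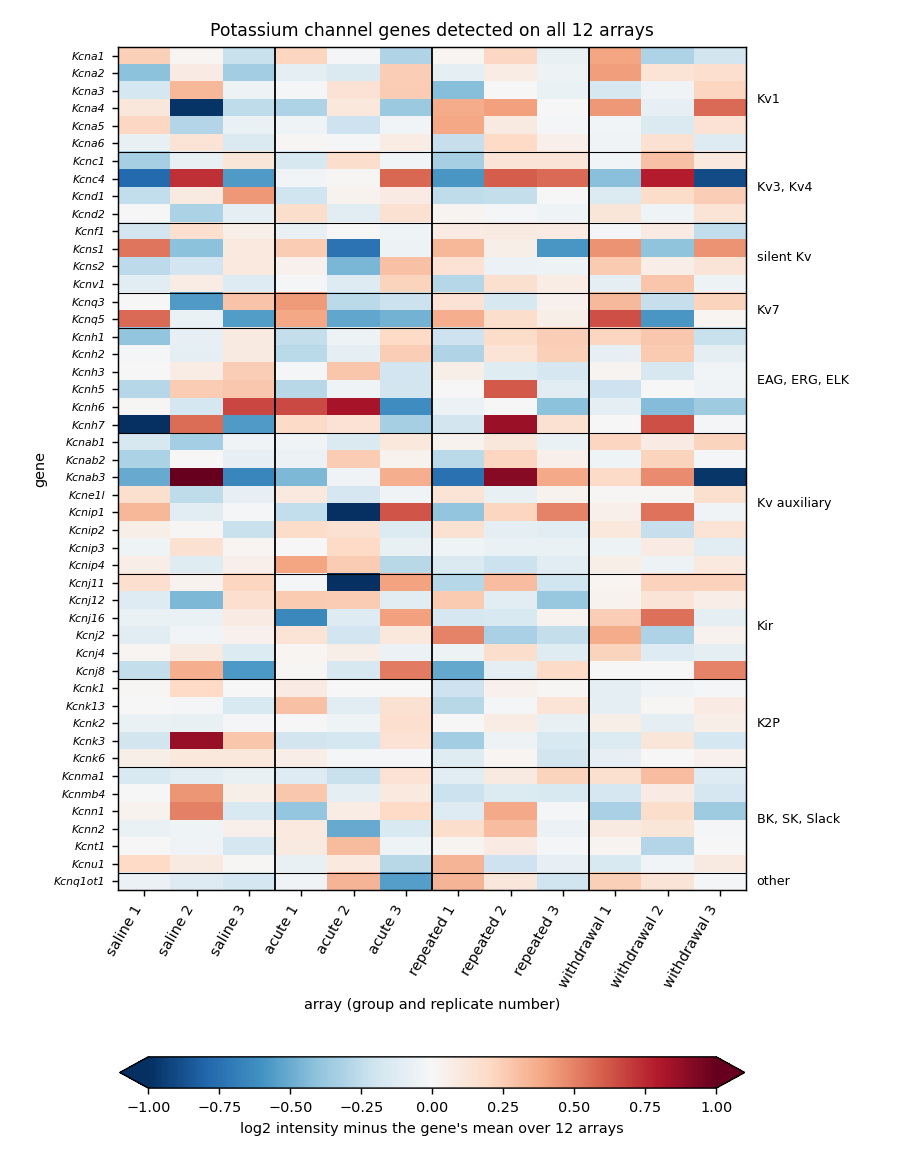
Log2 intensity of the 48 potassium channel genes detected on all 12 arrays (vertical axis, by family), each minus its own mean over the 12 arrays, with the arrays by group and number on the horizontal axis. Colour runs from -1 (blue) to 1 (red) on the log2 scale; the strongest colours, as for Kcnc4, Kcnab3, Kcnh7 and Kcnip1, separate arrays of one group.

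With 3 pools a group, wide differences could be bounded and narrow ones could not be resolved. For the 48 genes detected on all arrays, the 95% interval of the difference lay within 2-fold in either direction for 42 in acute, 40 in repeated and 42 in withdrawal against saline. It lay within 1.5-fold for 32, 31 and 26 of them. The SD within groups ran from 0.0662 (Kcnk6) to 0.838 (Kcnh4), with a median of 0.286 over the 68 genes and 0.211 over those 48, against 0.215 over all probes. In all 3 comparisons with saline together, 40 of the 48 genes had a fitted difference under 1.3-fold. The 3 comparisons share the saline pools.

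The Kv1 family holds the classical delayed rectifiers and A-type subunits of axons and nerve terminals, and 7 of its 8 genes on the array were measured, 6 of them on all arrays. Kcna2, the axonal subunit that also carries slowly inactivating current in striatal projection neurons, had levels of 8.04, 8.54 and 8.10 (saline), 8.37, 8.31 and 8.70 (acute), 8.36, 8.53 and 8.40 (repeated) and 8.87, 8.59 and 8.62 (withdrawal). All 3 withdrawal pools lay above all saline pools, with saline 2 only just under the lowest of them, the acute pools overlapped both groups, and the repeated pools overlapped saline and lay below all withdrawal pools. Withdrawal exceeded saline by 0.47 ± 0.16 (95% interval 0.12 to 0.81), with an unadjusted p of 0.013 and an adjusted p of 0.622, so that the series criteria were met and the adjusted threshold was not. The criteria were no longer met without saline 1 or without withdrawal 1. Its differences were 0.23 ± 0.16 in acute and 0.20 ± 0.16 in repeated.

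Kcna4, the rapidly inactivating member of the family, was at 5.80, 4.70 and 5.43 (saline), 5.37, 5.79 and 5.31 (acute), 6.05, 6.09 and 5.68 (repeated) and 6.12, 5.60 and 6.25 (withdrawal). Saline 2 was lowest of the 12, and the saline 1 value lay among those of the repeated and withdrawal groups, so those groups overlapped. It met the series criteria in repeated (0.63 ± 0.28, unadjusted p 0.0457) and in withdrawal against saline (0.68 ± 0.28, 0.034). The adjusted p-values were 0.551 and 0.626. Without saline 2 the differences were 0.33 and 0.37, and neither met the criteria. The criteria in repeated were also lost without saline 3, acute 1, acute 3, repeated 1, repeated 2 or withdrawal 1, and with the replicate number as a block (unadjusted p 0.0545, adjusted p 0.442). Those in withdrawal were also lost without withdrawal 1 or withdrawal 3. Kcna1, the partner of Kcna2 in axons, had group means of 8.45 ± 0.23, 8.40 ± 0.26, 8.49 ± 0.14 and 8.40 ± 0.38. For Kcna5 they were 9.34 ± 0.25, 9.30 ± 0.10, 9.55 ± 0.20 and 9.38 ± 0.15. Their largest differences from saline were -0.05 and 0.21. Kcna6 lay between 11.13 and 11.56 on all arrays, Kcna3, a subunit also of immune cells, between 5.26 and 6.02, and Kcna10 was detected on 5 arrays.

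Among the Kv3 channels of fast-spiking neurons and the Kv4 channels, which carry the somatodendritic A-type current, all 6 genes on the array were measured. Kcnd3, a Kv4 subunit, was read at 3.36, 3.32 and 3.32 (saline), 4.41, 3.89 and 4.65 (acute), 3.64, 3.74 and 4.18 (repeated) and 3.82, 3.32 and 3.52 (withdrawal). The probe was near the floor: it was detected on acute 1, acute 3 and repeated 3 and on no saline or withdrawal array. All acute and repeated values nevertheless lay above all saline values. Only acute and repeated arrays carried the probe past the detection filter, so its excess over saline and over withdrawal was partly set by that selection. Measured means were 4.32 in acute and 3.34 in saline, a fitted difference of 0.98 ± 0.21 with an unadjusted p of 0.000799 and an adjusted p of 0.758. Against the lowest level counted as detected, acute was at least 1.33-fold higher than saline, at least 1.47-fold higher than withdrawal. Such bounds take the measured mean of the higher group, here with the undetected acute 2 included. They hold for that mean only and carry no sampling error. Repeated stood 0.52 ± 0.21 above saline and -0.47 from acute, and the mean of the cocaine groups 0.57 ± 0.17 above saline, each meeting the series criteria. In single omissions of an array the criteria were always met for acute and for the cocaine mean against saline. For repeated against saline they were lost without saline 1, saline 2, saline 3 or repeated 3, and for repeated against acute in 9 of the 12 omissions. With the floor at 20 units the difference of acute from saline was 0.14 and that of repeated from saline 0, and neither met the criteria.

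Kcnd2, the main Kv4 subunit of striatal neurons, had group means of 11.83 ± 0.16, 12.05 ± 0.16, 11.96 ± 0.03 and 12.04 ± 0.10. Its difference in acute was 0.21 ± 0.11, with an unadjusted p of 0.0912 and an adjusted p of 1, and a second probe gave 0.05. Kcnd1 lay between 6.37 and 7.06. Kcnc1, a Kv3 subunit of fast-spiking interneurons, had means of 10.06 ± 0.23, 10.15 ± 0.17, 10.12 ± 0.27 and 10.27 ± 0.16, and its pools overlapped in every comparison with saline. Kcnc2, another subunit of such cells, was detected on 0 saline arrays and on 5 of the 9 cocaine arrays, at 3.32, 3.97 and 3.32 (saline), 3.73, 4.57 and 3.86 (acute), 3.36, 4.62 and 4.50 (repeated) and 3.78, 4.35 and 4.23 (withdrawal). It was at least 1.10-fold higher than saline in acute, at least 1.19-fold higher in repeated and at least 1.15-fold higher in withdrawal, with adjusted p-values of 1, 0.632 and 0.698. In acute only 1 array was detected, so the bound there rests largely on undetected values. Cocaine arrays alone carried the probe past the detection filter, so its excess over saline was partly set by that selection.

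**Figure D2:**
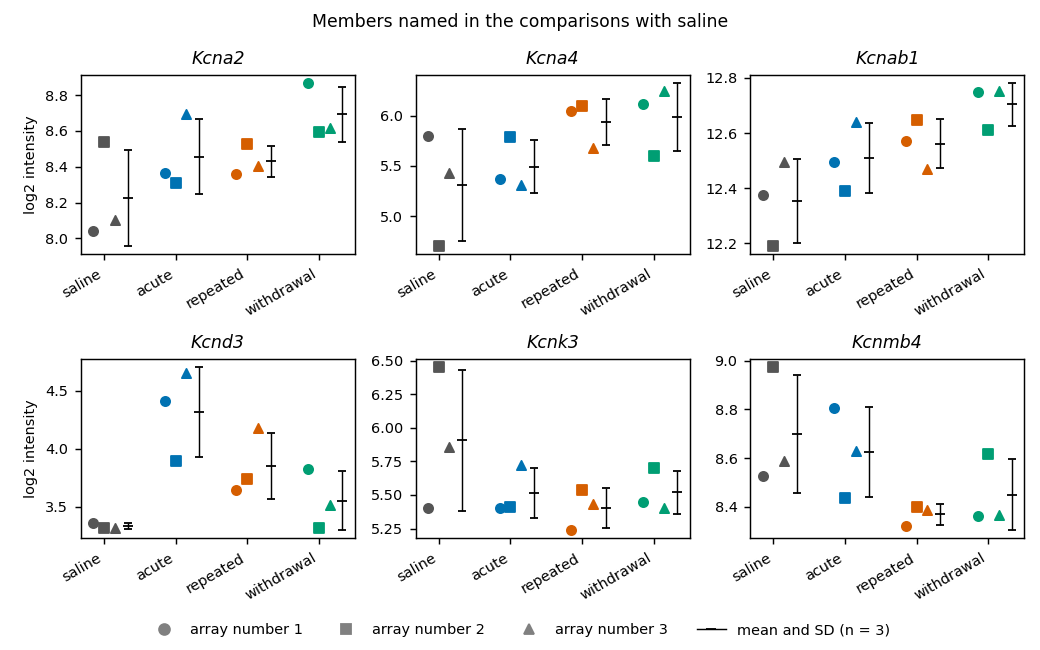
Log2 intensity (vertical axis) of Kcna2, Kcna4, Kcnab1, Kcnd3, Kcnk3 and Kcnmb4 on the 12 arrays by group (horizontal axis); points are arrays, marker shapes are array numbers, and bars are the mean and SD of 3. Withdrawal lies clear of saline for Kcna2 and Kcnab1, and saline 2 stands at the end of the saline range in all panels but Kcnd3.

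The silent Kv subunits form channels only together with other subunits. Of 10 genes on the array, 7 were measured, 4 of them on all arrays. Kcnf1 lay between 10.47 and 10.89, Kcns2 between 7.04 and 7.79, Kcnv1 between 8.35 and 8.91 and Kcns1 between 4.48 and 5.75. The largest difference from saline among the 7 was -0.47 for Kcns3 in withdrawal, where the probe was detected on 0 arrays against 1 in saline. Kcng2 was detected on 9 arrays and Kcng4 on 3. The Kv7 genes encode the channels of the M current, which muscarinic receptors suppress. Kcnq3 had group means of 5.76 ± 0.43, 5.84 ± 0.39, 5.87 ± 0.16 and 5.96 ± 0.30 and Kcnq5 of 9.38 ± 0.57, 9.20 ± 0.51, 9.60 ± 0.15 and 9.43 ± 0.61. Neither differed between treatments beyond its spread. Kcnq1, a subunit best known from heart and ear, was detected on 0 acute and 2 repeated arrays. It was at least 1.16-fold higher in repeated than in acute, with a fitted difference of 0.66 ± 0.25, an unadjusted p of 0.0273 and an adjusted p of 0.878. That bound includes an undetected repeated array. Acute arrays did not carry the probe past the detection filter, so the difference was partly set by that selection.

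The EAG, ERG and ELK channels, of which 7 of 8 genes were measured, shape firing threshold and adaptation. Kcnh1, Kcnh2 and Kcnh3 ranged from 9.66 to 10.32, 7.48 to 8.04 and 8.69 to 9.17 over the 12 arrays, and their largest difference from saline was 0.21. Kcnh7 had a large fitted difference, 0.77 ± 0.45 in repeated against saline, with levels of 4.05, 6.07 and 4.94 (saline), 5.70, 5.65 and 5.18 (acute), 5.32, 6.37 and 5.66 (repeated) and 5.51, 6.15 and 5.50 (withdrawal). Saline 1 was lowest and repeated 2 highest, saline 2 lay above 7 of the cocaine pools, and the unadjusted p was 0.121. Kcnh6 was -0.46 in withdrawal against saline, and Kcnh5 -0.25 in acute, without meeting the criteria. Kcnh4 had group means of 4.53 ± 0.91, 4.32 ± 1.17, 4.62 ± 0.63 and 4.52 ± 0.47.

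The auxiliary subunits of Kv channels comprise the Kv beta subunits, the small Kcne proteins and the KChIP calcium sensors, and 11 of 12 genes were measured. Kcnab1 encodes a Kv beta subunit that confers fast inactivation on Kv1 channels, and its levels were 12.37, 12.19 and 12.49 (saline), 12.50, 12.39 and 12.64 (acute), 12.57, 12.65 and 12.47 (repeated) and 12.75, 12.61 and 12.75 (withdrawal). All withdrawal pools lay above all saline pools, and the acute and repeated groups overlapped saline. The difference in withdrawal was 0.35 ± 0.11 (95% interval 0.11 to 0.59) with an unadjusted p of 0.00887 and an adjusted p of 0.612, which fell short of the 1.3-fold minimum. Its other probes gave 0.25 and 0.13. Over the cocaine groups together the difference was 0.24 ± 0.09, with 0.16 and 0.17 from the other probes.

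Kcnab2, the most widely expressed Kv beta subunit in brain, had group means of 12.04 ± 0.16, 12.25 ± 0.16, 12.17 ± 0.24 and 12.22 ± 0.15, a difference of 0.21 ± 0.15 in acute. Among the KChIP genes, whose products bind Kv4 channels, Kcnip2 had means of 9.23 ± 0.15, 9.34 ± 0.18, 9.26 ± 0.14 and 9.28 ± 0.21 and Kcnip3, which also acts as the transcriptional repressor DREAM, of 10.13 ± 0.10, 10.13 ± 0.14, 10.03 ± 0.02 and 10.06 ± 0.10. Kcnip3 had one of the narrowest ranges of the set, from 9.98 to 10.29 over the 12 arrays. Kcnip1 spread widely within the acute group, with acute 2 at 6.49 against 8.56 and 7.69 in the other acute pools, and its difference in acute was -0.42 ± 0.44. Kcne1 was detected on 2 saline, 0 acute, 0 repeated and 1 withdrawal arrays and Kcne2 on 0, 2, 1 and 1. Kcne2 is itself expressed in choroid plexus, and the choroid plexus and ependyma markers, 4 of 5 measured, summed to 691 to 823 units in saline, 88.3 to 294 in acute, 227 to 1012 in repeated and 204 to 1827 in withdrawal; the part of that tissue was not tested. Kcne1l lay between 8.29 and 8.71, Kcne4 was detected on 11 arrays, and Kcnip4 had means of 7.52 ± 0.11, 7.64 ± 0.36, 7.36 ± 0.05 and 7.55 ± 0.08. No auxiliary subunit met the series criteria in any comparison.

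Of 13 inward rectifier genes on the array, 9 were measured. The strong rectifiers of the striatum had differences from saline near 0 or within the spread of their pools. Kcnj4 lay between 10.80 and 11.16 on the 12 arrays with group means of 10.93 ± 0.12, 10.95 ± 0.06, 10.95 ± 0.16 and 10.94 ± 0.19, with no group apart from another and an F test p of 0.999. Kcnj2 had group means of 6.26 ± 0.07, 6.31 ± 0.18, 6.27 ± 0.45 and 6.32 ± 0.34, and Kcnj12 of 6.50 ± 0.31, 6.77 ± 0.22, 6.55 ± 0.32 and 6.71 ± 0.05. The largest of their differences from saline was 0.27 ± 0.19, for Kcnj12 in acute.

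Kcnj3 encodes a subunit of the channels that G protein beta-gamma opens downstream of dopamine D2, opioid and GABA-B receptors. It was at 3.53, 5.53 and 4.96 (saline), 5.55, 5.67 and 5.88 (acute), 4.59, 5.59 and 5.56 (repeated) and 4.60, 5.82 and 4.63 (withdrawal). All acute pools lay above all saline pools, with saline 1 far below the other pools, and the difference of 1.03 ± 0.50 had an unadjusted p of 0.0685. A second probe gave 0.16. Kcnj6, its usual partner in neurons, was at 3.32, 5.06 and 3.96 (saline), 4.08, 5.09 and 4.92 (acute), 3.32, 4.56 and 4.26 (repeated) and 3.32, 5.01 and 4.09 (withdrawal), a difference of 0.58 ± 0.54 in acute with overlapping groups. Kcnj9, a further partner, had no kept probe. Of the pore-forming subunits of ATP-sensitive channels, Kcnj11 had means of 5.26 ± 0.09, 4.88 ± 0.78, 5.07 ± 0.32 and 5.28 ± 0.12 and Kcnj8 of 4.93 ± 0.48, 5.21 ± 0.36, 4.95 ± 0.36 and 5.25 ± 0.29. Kcnj16, a subunit of glial and epithelial cells, had means of 5.59 ± 0.08, 5.49 ± 0.53, 5.51 ± 0.11 and 5.84 ± 0.32, and Kcnj14 was detected on 4 arrays.

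By family, the counts of genes with a fitted difference above 0 in withdrawal against saline were 5 of 7 for Kv1, 6 of 6 for Kv3 and Kv4, 5 of 7 for the silent subunits, 2 of 3 for Kv7 and 3 of 7 for EAG, ERG and ELK. They were 8 of 11 for the Kv auxiliary subunits, 9 of 9 for Kir, 4 of 9 for K2P and 2 of 7 for the channels opened by calcium or sodium. Among all probes 50.8% lay above 0. For Kir genes the count was 7 of 9 in acute and 6 of 9 in repeated. In withdrawal their differences ran from 0.01 to 0.34. Genes share arrays and saline pools, so these counts are a description and not a test.

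The K2P channels carry background potassium current. Of 14 genes on the array, 9 were measured, 5 of them on all arrays. Kcnk3, an acid-sensitive leak channel, was at 5.41, 6.46 and 5.86 (saline), 5.40, 5.41 and 5.73 (acute), 5.24, 5.54 and 5.43 (repeated) and 5.45, 5.70 and 5.41 (withdrawal). Saline 2 was highest and saline 3 above all cocaine pools, while saline 1 lay among them. The mean of the cocaine groups differed from saline by -0.43 ± 0.19 (95% interval -0.84 to -0.01), with an unadjusted p of 0.044 and an adjusted p of 0.592, and it was -0.39, -0.50 and -0.39 in acute, repeated and withdrawal. Without saline 2 the acute difference was -0.12, and that of the mean of the cocaine groups was -0.15. The criteria for that mean were met in 4 of the 12 omissions of a single array. Kcnk2, the mechanosensitive leak channel TREK-1, had the narrowest range of the set, from 10.90 to 11.16, with means of 10.93 ± 0.03, 11.03 ± 0.11, 10.98 ± 0.07 and 10.99 ± 0.08. Kcnk1 had means of 11.23 ± 0.11, 11.19 ± 0.05, 11.11 ± 0.13 and 11.12 ± 0.04, and Kcnk6 of 7.38 ± 0.03, 7.31 ± 0.05, 7.20 ± 0.10 and 7.28 ± 0.06. Kcnk6 pools of the repeated group lay below all saline pools, a difference of -0.18 ± 0.08 with -0.21 from a second probe. Kcnk13 lay between 8.50 and 9.06, and Kcnk4 and Kcnk5 were each detected on 3 arrays. For Kcnk4 these were 1 acute and 2 repeated arrays.

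A pair of K2P genes near the detection limit met the series criteria between cocaine groups. Kcnk10, a relative of Kcnk2, was at 4.17, 3.35 and 3.90 (saline), 3.92, 3.32 and 3.68 (acute), 4.73, 4.19 and 4.04 (repeated) and 4.13, 4.90 and 4.15 (withdrawal). All repeated and withdrawal pools lay above all acute pools, by 0.68 ± 0.29 and 0.75 ± 0.29, with unadjusted p-values of 0.0397 and 0.0251 and adjusted ones of 0.878 and 0.848. A second probe gave 0.17 and -0.04 for the same differences. Kcnk12, at 4.66, 4.01 and 3.32 (saline), 3.32, 3.99 and 3.32 (acute), 4.12, 4.25 and 3.69 (repeated) and 4.47, 4.97 and 4.03 (withdrawal), was 0.95 ± 0.35 higher in withdrawal than in acute without overlap (unadjusted p 0.0222, adjusted p 0.848).

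The channels opened by calcium or sodium had 7 of 12 genes measured. Kcnmb4, the neuronal beta subunit of the large-conductance (BK) channel, was at 8.53, 8.98 and 8.59 (saline), 8.81, 8.44 and 8.63 (acute), 8.32, 8.40 and 8.39 (repeated) and 8.36, 8.62 and 8.37 (withdrawal). All repeated pools lay below all saline pools, and saline 2 was the highest of the 12. The difference was -0.33 ± 0.14 with an unadjusted p of 0.0415 and an adjusted p of 0.545, and a second probe gave -0.08. In withdrawal the probes gave -0.25 and -0.30. Kcnma1, the pore of the same channel, had means of 9.22 ± 0.04, 9.27 ± 0.19, 9.41 ± 0.16 and 9.45 ± 0.22, with differences of 0.18 ± 0.14 in repeated and 0.23 ± 0.14 in withdrawal. The small-conductance channel genes Kcnn1 and Kcnn2 ranged from 5.94 to 6.84 and 5.46 to 6.27, and Kcnn3 was detected on 9 arrays. Kcnt1, the sodium-activated channel Slack, had means of 9.05 ± 0.09, 9.23 ± 0.18, 9.15 ± 0.05 and 9.03 ± 0.18; its probes differed in sign in acute, at 0.19 and -0.13. Kcnu1, known from sperm, lay between 6.88 and 7.49. Apart from the channels, the antisense transcript Kcnq1ot1 had means of 7.77 ± 0.06, 7.81 ± 0.45, 7.97 ± 0.27 and 8.01 ± 0.12 and Kcnrg, a regulator of Kv assembly, was detected on 8 arrays.

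**Figure D3:**
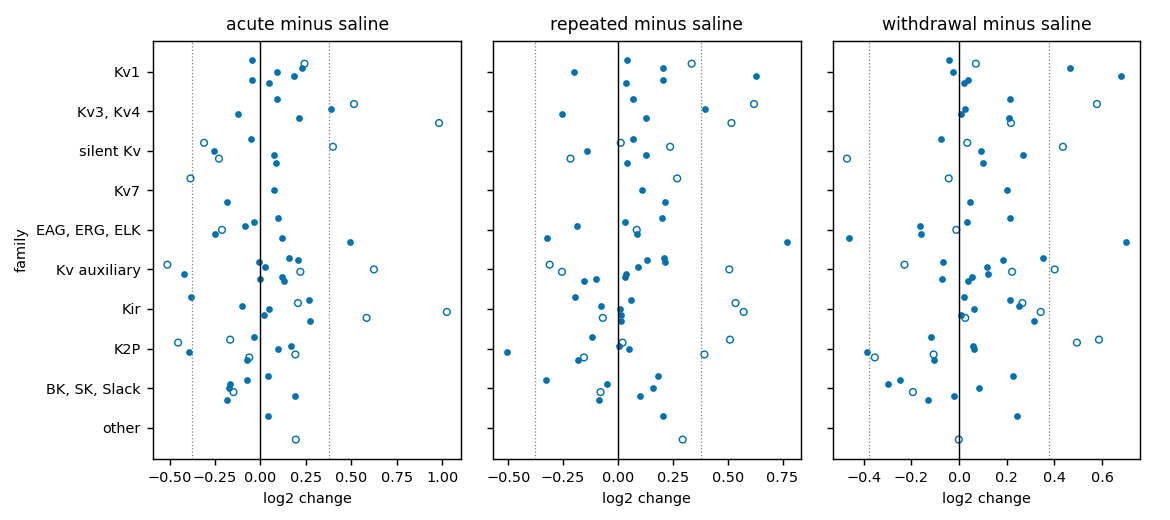
Fitted log2 differences from saline (horizontal axis) of the 68 potassium channel genes by family (vertical axis) in the acute, repeated and withdrawal groups; filled points are genes detected on all 12 arrays, open points the others, and dotted lines mark 1.3-fold. Most filled points lie between the dotted lines. The widest differences in acute, 0.98 for Kcnd3 and 1.03 for Kcnj3, belong to open points, and the widest in repeated and withdrawal, 0.77 and 0.70 for Kcnh7, to filled ones.

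The acute group addresses the effect of a first dose 1 h after it. Of the 68 genes, 1 met the series criteria, Kcnd3, against 2.77% of all probes, and 38 had a difference above 0, against 49.9%. Pools did not overlap for 3 genes, Kcnd3, Kcnj3 and Kcnq1, against 7.34% of probes. The median difference was 0.05, and 0.00 over all probes. The smallest unadjusted p-values of the genes above 0 belonged to Kcnd3, Kcnj3, Kcnd2 and Kcnt1, and of those below 0 to Kcne1 (-0.51 ± 0.25), Kcnk3 (-0.39 ± 0.23), Kcnq1 (-0.39 ± 0.25) and Kcnk12 (-0.45 ± 0.35). With the replicate number as a block 4 genes met the criteria, Kcnc2, Kcnd3, Kcnj3 and Kcnj6, against 4.09% of probes. The lowest adjusted p of the set was then 0.466. Kcnc2 and Kcnd3 were detected on 0 saline arrays, so their excess over saline was partly set by the detection filter. The unblocked count was 5 without saline 2, 4 without acute 3 and 2 without saline 1, saline 3 or repeated 2.

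The repeated group addresses 8 daily doses. Against saline, 2 genes met the criteria, Kcnd3 and Kcna4 (4.59% of probes), and 47 had a difference above 0 (50.3%). Pools were apart for Kcnd3, Kcnk6 and Kcnmb4, 3 genes against 16.6% of probes. The median was 0.05, while the median over the set had an SD of 0.063 between pools within groups. The genes share arrays, so the count above 0 is a description and not a test. After Kcnd3 and Kcna4, the smallest p-values above 0 were those of Kcnab1 (0.21 ± 0.11, other probes 0.11 and 0.01) and Kcnk10 (0.51 ± 0.29, second probe 0.05), and below 0 those of Kcnmb4, Kcnk3 (-0.50 ± 0.23), Kcnk6 and Kcnd1 (-0.26 ± 0.18). Same-numbered pools of these groups deviated together. With the replicate number as a block 5 genes met the criteria, Kcnc2, Kcnd3, Kcnh7, Kcnk3 and Kcnk4, while the share of all probes rose to 6.18%. The lowest adjusted p among these 5 was 0.362, for Kcnc2. Kcnc2, Kcnd3 and Kcnk4 were detected on 0 saline arrays and passed the detection filter through cocaine arrays alone. Their excess over saline was partly set by that selection. The unblocked count was 4 without saline 1, 3 without repeated 1, and 1 without saline 3, acute 1, acute 3, repeated 2, repeated 3 or withdrawal 1.

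A challenge dose after 7 days of saline, compared with saline alone, gave 2 genes that met the criteria, Kcna2 and Kcna4 (3.94% of probes). A difference above 0 was found for 45 genes (50.8%). Kcna2, Kcnab1, Kcnk1, Kcnk6 and Kcnq1ot1 had pools apart, 5 genes against 14.3% of probes. The median was again 0.05. Kcnk10 followed above 0 (0.59 ± 0.29, second probe -0.16), and below 0 the smallest p-values were those of Kcnmb4, Kcnk3 (-0.39 ± 0.23), Kcnk5 (-0.35 ± 0.23) and Kcns3 (-0.47 ± 0.32). The replicate block, which the pairing check bore out here too, gave 4 genes, Kcna2, Kcna4, Kcnc2 and Kcns3, against 5.48% of probes. Their lowest adjusted p was 0.436. The detection filter partly set the differences of Kcnc2, detected on 0 saline arrays, and of Kcns3, detected on 0 withdrawal arrays. The unblocked count was 4 without saline 1, 1 without withdrawal 3 and 0 without withdrawal 1.

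Over the mean of the 3 cocaine groups, Kcnd3 and Kcnk3 met the criteria, 2 genes against 3.1% of probes, and 44 had a difference above 0 (50.8%). By p, Kcnab1 (0.24 ± 0.09), Kcna2 (0.30 ± 0.13) and Kcna4 (0.50 ± 0.23) came next above 0, and Kcnmb4 (-0.22 ± 0.12), Kcnk6 (-0.12 ± 0.07) and Kcne1 (-0.35 ± 0.20) below. No gene had all saline pools apart from all 9 cocaine pools, against 1.83% of probes. The count was 6 without saline 2 and 1 without saline 3, acute 1, acute 2, withdrawal 1 or withdrawal 3.

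In repeated against acute, 3 genes met the criteria, Kcnq1 and Kcnk10 higher and Kcnd3 lower (3.18% of probes), 37 lay above 0 (50.6%), and 4 had pools apart, Kcna5, Kcnf1, Kcnk10 and Kcnmb4 (10.4%). Same-numbered pools of these groups also deviated together, and with the replicate block 4 genes met the criteria, against 4.55% of probes. They were the same 3 and Kcnj6 (-0.65 ± 0.18, unadjusted p 0.00664, adjusted p 0.633), which was at the floor on repeated 1. Kcnn2 (0.33 ± 0.15) and Kcna5 (0.25 ± 0.15) followed above 0, Kcnip4 (-0.28 ± 0.16), Kcnmb4 (-0.26 ± 0.14) and Kcna3 (-0.29 ± 0.17) below. In withdrawal against acute, 3 met them, Kcnk12 and Kcnk10 higher and Kcnd3 lower (-0.77 ± 0.21, adjusted p 0.848), against 3.39% of probes, 37 lay above 0 (51%), and 4 had pools apart, these 3 and Kcnk1 (9.7%). Next came Kcnab1 (0.19 ± 0.11), Kcna4 (0.50 ± 0.28), Kcnt1 (-0.21 ± 0.12), Kcnh6 (-0.58 ± 0.35) and Kcnj3 (-0.68 ± 0.50). In withdrawal against repeated, 0 genes met them (1.55%), 40 lay above 0 (51.3%), and Kcna2 (0.26 ± 0.16) and Kcnip4 (0.19) had pools apart (7.34%). The other genes with the smallest p there were Kcnd1 (0.26 ± 0.18), Kcnj16 (0.33 ± 0.24), Kcnk12 (0.47 ± 0.35), Kcnk4 (-0.50 ± 0.24), Kcnd3 (-0.30 ± 0.21), Kcnf1 (-0.15 ± 0.11) and Kcnq1 (-0.31 ± 0.25). Kcnk4 and Kcnd3 were detected on 0 withdrawal arrays, so the detection filter partly set their differences there. In single omissions of an array, the criteria in repeated against acute were lost 4 times for Kcnq1 and 5 times for Kcnk10, and in withdrawal against acute 2 times for Kcnk10, 3 times for Kcnk12 and 0 times for Kcnd3. Only acute and repeated arrays carried Kcnd3 past the detection filter, so its difference from withdrawal was partly set by that selection. Without acute 3 the count was 6 in withdrawal against acute, and without saline 3, acute 2, repeated 1 or repeated 2 it was 1 in repeated against acute. Without repeated 1 or repeated 2 it was 1 in withdrawal against repeated.

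Expression differed by array number over the whole array, potassium channel genes included. This comparison was added after the values were seen, and what the number stands for is not given in the labels beyond a replicate. Between the 4 arrays numbered 1 and the 8 others, with groups in the fit, 3 genes passed the adjusted threshold, against 3.6% of all probes. Kcnh4, a channel of the ELK subfamily, was 1.33 ± 0.20 higher on the arrays numbered 1, with an adjusted p of 0.00626. Its probe was detected on 10 arrays and stood at the floor on acute 2, so its fitted size depends on the processing. Over the alternatives run, its difference lay between 0.43 and 1.52, with an adjusted p in limma of at most 0.0427. Its levels were 5.58, 3.90 and 4.12 (saline), 5.60, 3.32 and 4.04 (acute), 5.33, 4.11 and 4.42 (repeated) and 5.03, 4.10 and 4.43 (withdrawal), so that array 1 was the highest of every group and no array numbered 1 overlapped another. For Kcnq5 the difference was 0.73 ± 0.15 with an adjusted p of 0.0327, from levels of 9.97, 9.33 and 8.84 (saline), 9.79, 8.89 and 8.93 (acute), 9.76, 9.58 and 9.46 (repeated) and 10.05, 8.82 and 9.42 (withdrawal), again without overlap. Its other 2 probes gave -0.04 and -0.11. Kcnj6 differed by -1.11 ± 0.22 (adjusted p 0.0252), was lowest on array 1 in every group, and stood at the floor on 3 of these 4 arrays. Its fitted size therefore depends on the floor, and with the floor at 20 units it was -0.38 with an adjusted p of 0.348. Without background subtraction it was -0.28, with an adjusted p of 0.036. A second Kcnj6 probe gave -0.55.

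The Kcnh4 call was kept in each omission of a single array. That of Kcnj6 was lost without saline 1, acute 1, repeated 1, repeated 2 or withdrawal 1, and that of Kcnq5 without saline 1, saline 3, acute 1, acute 2, acute 3, repeated 3 or withdrawal 1. Kcna3, Kcnab2, Kcnc1, Kcnd1 and Kcnj3 were also lowest, and Kcns1 highest, on array 1 in all 4 groups, without passing the threshold.

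**Figure D4:**
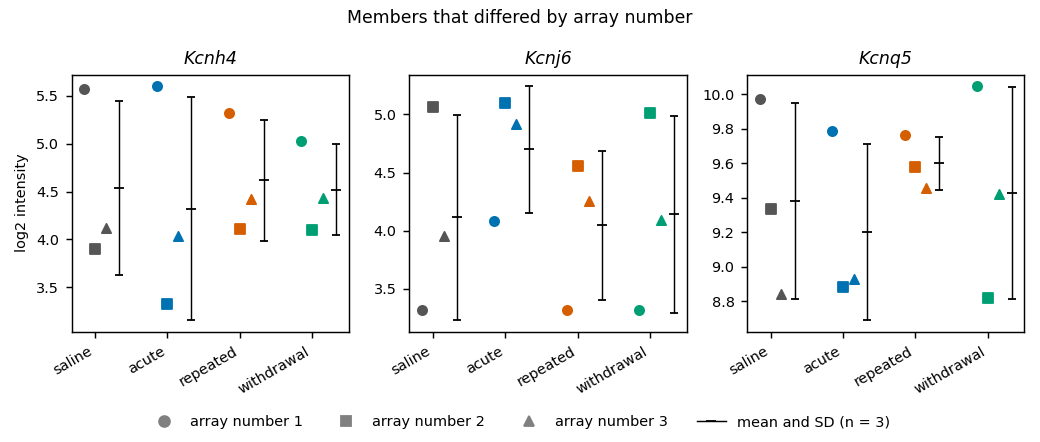
Log2 intensity (vertical axis) of Kcnh4, Kcnj6 and Kcnq5 on the 12 arrays by treatment group (horizontal axis), with marker shapes for the array numbers and bars for the mean and SD of 3. Array 1 is highest of its group for Kcnh4 and Kcnq5 and lowest for Kcnj6 in all 4 groups.

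Other potassium channel genes followed the summed cortical neuron markers, a comparison likewise added after the values were seen. The summed intensity of Slc17a7, Tbr1, Fezf2 and Cux2 was 460, 1875 and 381 units in saline, 981, 671 and 1442 in acute, 332, 1425 and 1276 in repeated and 636, 1865 and 416 in withdrawal. The lowest sums of saline, repeated and withdrawal lay below every acute sum, and the highest sums of saline and withdrawal above those of the other groups. The 4 markers did not move alike. Over the 12 arrays Slc17a7 ran from 4.08 to 10.23 and Tbr1 from 3.32 to 8.35, but Fezf2 only from 7.28 to 8.35 and Cux2 from 6.65 to 7.52. Cux2 met the series criteria in acute against saline at -0.50 ± 0.17. With groups in the fit, 2 genes passed the adjusted threshold for the slope on the log2 sum, against 0.742% of probes. At an unadjusted p under 0.05 there were 17 of 68 genes, against 10.3% of probes. Kcnc4, a Kv3 subunit, had a slope of 0.65 ± 0.06 log2 units per doubling of the sum with an adjusted p of 0.00163. Its levels were 8.44, 9.95 and 8.65 (saline), 9.19, 9.23 and 9.79 (acute), 8.63, 9.82 and 9.78 (repeated) and 8.80, 10.00 and 8.32 (withdrawal). Saline 2 and withdrawal 2, the arrays with the highest marker sums, had the highest Kcnc4 levels. A second Kcnc4 probe gave a slope of 0.95, with an adjusted p of 0.0102. Kcnab3, a Kv beta subunit, had a slope of 0.66 ± 0.10 with an adjusted p of 0.0237, from levels of 5.78, 7.33 and 5.63 (saline), 5.83, 6.25 and 6.64 (acute), 5.54, 7.19 and 6.66 (repeated) and 6.48, 6.75 and 5.31 (withdrawal). In every group the array with the highest sum read above the one with the lowest for both genes. All 3 arrays stood in the order of the sum in 2 of 4 groups for Kcnc4 and 3 of 4 for Kcnab3.

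**Figure D5:**
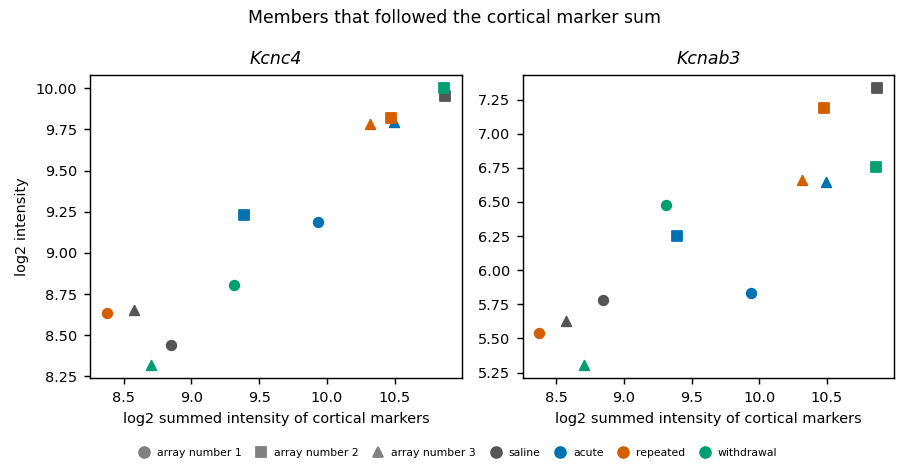
Log2 intensity of Kcnc4 and Kcnab3 (vertical axes) against the log2 summed intensity of the 4 cortical neuron markers (horizontal axes) on the 12 arrays, with colours for treatment groups and shapes for array numbers. In each treatment group the array with the highest marker sum reads above the one with the lowest. The array between them does not always keep that order.

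The Kcnc4 call was kept in each omission of 1 array, but not without the 4 arrays numbered 1, where the slope was 0.65 with an adjusted p of 0.205. The Kcnab3 call was lost without saline 1, saline 2, saline 3, acute 3, repeated 1, repeated 2, withdrawal 2 or withdrawal 3. Markers of thalamic neurons, 3 of 4 measured, summed to 312 to 872 units. That sum was likewise high on saline 2, acute 3, repeated 2 and withdrawal 2, but its markers did not rise together. Slc17a6 was at 9.09 on saline 2 and 9.28 on repeated 2. Prkcd and Tcf7l2 had their lowest levels of the 12 arrays on saline 2, at 6.39 and 7.07. The interneuron marker Pvalb was at 8.16, 10.19 and 8.05 in saline and 9.11, 9.19 and 9.38 in acute. In repeated it was at 7.96, 9.94 and 9.26, and in withdrawal at 8.31, 9.51 and 8.17. Within acute, Kcnc4, Kcnab3 and Pvalb all rose from array 1 to 3, while the cortical sum was lowest on acute 2. The sum of the 8 interneuron markers was highest of the repeated group on repeated 1. No slope on Pvalb was fitted. Of genes named in the treatment comparisons, Kcna4 had a slope on the cortical sum of -0.28 and Kcnk3 of 0.22, neither past the adjusted threshold. Kcnj3 had slopes of 0.51 ± 0.14 and 0.40 ± 0.13 on its probes (adjusted p 0.185 and 0.28) and Kcnmb4 of 0.12 and 0.15 (0.36 and 0.257). With the marker sum as a covariate the acute difference of Kcnj3 was 0.77 ± 0.34, with an unadjusted p of 0.0498 and an adjusted p of 0.908, and that of Kcnmb4 in repeated was -0.36. With the marker sum as a covariate Kcna4 stood 0.71 above saline in repeated and 0.73 in withdrawal, and Kcnk3 at -0.50 in the mean of the cocaine groups, with adjusted p-values of 0.395, 0.521 and 0.379. The part of cortical or thalamic tissue, or of interneurons, in these values was not tested.

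Promoter sequences were taken from RefSeq on GRCm38.p6 as 250 bases before to 50 after each annotated start, and 51 of the 68 genes had 1 or more windows, 75 in all. The 250 bases before the start are shown for Kcnc4 (chr3:107458899-107459148, minus strand) and Kcnh4 (chr11:100759779-100760028, minus strand). These are the genes whose differences between arrays passed the adjusted threshold and were kept when any single array was left out. Capitals mark the GC box, GGGCGG or its complement CCGCCC, and both are written 5′ to 3′ towards the start:
Kcnc4: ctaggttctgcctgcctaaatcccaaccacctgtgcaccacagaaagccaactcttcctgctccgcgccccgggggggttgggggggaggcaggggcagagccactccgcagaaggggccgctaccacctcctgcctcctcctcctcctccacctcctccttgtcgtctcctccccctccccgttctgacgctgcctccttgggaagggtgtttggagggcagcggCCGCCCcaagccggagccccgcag
Kcnh4: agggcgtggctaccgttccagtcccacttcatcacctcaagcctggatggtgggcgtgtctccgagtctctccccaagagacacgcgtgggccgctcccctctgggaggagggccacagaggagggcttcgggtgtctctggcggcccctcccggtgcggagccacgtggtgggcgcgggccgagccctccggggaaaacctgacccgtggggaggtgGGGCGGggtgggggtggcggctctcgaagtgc
Guanine and cytosine made up 68% and 70.8% of them.

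On either strand, the GC box was in 37 of the 75 windows, 49.3%, against 35.7% of 32851 mouse windows. The cyclic AMP response element TGACGTCA was in 0 of 75 (1.79% of all windows), the EGR site GCGTGGGCG in 0 (0.612%), the AP-1 site TGANTCA in 3 (4% against 7.81%) and the E-box CAGATG in 15 (20% against 17.2%). The 3 windows with an AP-1 site belonged to Kcnip3, Kcnip4 and Kcnk2. The GC box binds the broadly expressed Sp factors, while the cyclic AMP response element, the EGR site and the AP-1 site bind factors that cocaine induces or activates in striatal neurons. A match describes the letters of the window only.

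Of 28 genes for auxiliary partners of potassium channels outside the prefix, 25 were measured, and 0 passed the adjusted threshold in limma in any of the 7 comparisons. In repeated against saline, 1 met the series criteria, against 4.59% of all probes. It was Abcc9, the sulfonylurea receptor that pairs with Kcnj8, at -0.76 ± 0.31 (adjusted p 0.531). Cntnap1, which organises axonal domains beside Kv1 channels, was at -0.43 ± 0.19 in repeated against acute (adjusted p 0.878). It was the 1 gene of the list to meet the criteria there, against 3.18% of probes. The medians of the list in the 3 comparisons with saline were 0.02, 0.00 and 0.03. Of 14 genes for potassium uptake and cotransport, 9 were measured. Slc12a4, a potassium and chloride cotransporter, was detected on 2 withdrawal arrays, 1 acute array and 0 saline and repeated arrays. Withdrawal arrays thus helped it past the detection filter, and its excess there was partly set by that selection. Its withdrawal level, an undetected array included, was at least 1.43-fold higher than that of saline and at least 1.52-fold higher than that of repeated. The adjusted p-values were 0.612 and 1. It met the series criteria in both, against 3.94% and 1.55% of probes, and in withdrawal against acute (0.69 ± 0.30, adjusted p 0.848), against 3.39%. The other 8 met no criterion.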

How the data were processed

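Expression was measured on 12 Illumina MouseWG-6 v2.0 arrays, 3 in each of 4 groups read from the sample titles. The authors subtracted background and quantile normalized in BeadStudio, per the series text and the submitters' processing notes, with no version named in the sources used here. Linear intensity fills the 2 deposited tables, and the one presented as raw was already quantile normalized, so total signal per array could not be compared. It also carries a deposited detection p-value per probe and array, per the file headers. The other table equalled it minus a constant on every array.

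A floor of 10 was set on the background-subtracted values before log2. Of 45281 probes, 25478 had a detection p under 0.05 on at least 3 arrays. Of the 68 genes, 17 had values at the floor, 8.58% of their values, and 26 had several kept probes. All 68 symbols matched the reference gene table, with 0 changed. The fit was limma 3.58.1 in R 4.3.3 (lmFit, eBayes) on all 12 arrays without covariates, with residual degrees of freedom of 8 and prior ones of 2.16. All tests were two-sided and adjusted by Benjamini-Hochberg over the kept probes. The series text names GeneSpring for the authors' p, and limma's p took its place. The number of arrays limits the precision. The fit was tested on simulated data. Bounds written "at least" set the measured mean of the higher group, undetected arrays included, against the other group. There, a level below its array's lowest detected level was raised to it. These bounds hold for the measured mean only, and another floor can give a smaller difference.

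In each comparison and direction, genes meeting the series criteria are named, filled to 4 by smallest p, with a fixed set of striatal channel genes given by level. The potassium channel genes and all lists were chosen with earlier results of these data known. The comparison by array number, the slope on cortical markers and the marker covariate were added after seeing the data. Deviations of same-numbered arrays from their group means correlated over 0.1 for every number in repeated and saline (lowest 0.133), withdrawal and saline (0.166) and repeated and acute (0.246). By that limit the number, from the titles, was taken to pair these samples. The lowest was under the limit, but above 0, in acute and saline (0.065), withdrawal and acute (0.036) and withdrawal and repeated (0.025). For number 1 the correlation was 0.386 to 0.468 in every pair of groups, so the limit does not part the pairs sharply. Arrays correlated pairwise at 0.973 to 0.992, and 0 pairs were identical.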

Additional observations from a re-analysis of the deposited data

How the results depend on the processing

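The count of potassium channel genes past an adjusted p of 0.05 in limma was 0 in each of the 7 treatment comparisons and in the F test under every alternative run. For the genes named with a treatment difference, 1369 values under 25 alternatives gave 0 reversals, 7 differences of 0, all with the floor of 20, and 0 past the adjusted threshold, with a lowest adjusted p of 0.284. These genes were named by their p in the same arrays, and several alternatives leave the fitted difference as it was. Agreement of sign was therefore largely set in advance and lends the differences no support. The small counts under the series criteria moved. In the order acute, repeated, withdrawal against saline, repeated against acute, withdrawal against acute, withdrawal against repeated and the cocaine mean, they were 1, 2, 2, 3, 3, 0 and 2. With a floor of 20 they were 0 for acute, repeated, repeated against acute, withdrawal against acute and the cocaine mean. Without background subtraction they were the same 0 for these 5 and 1 for withdrawal, with the offset of 50 likewise apart from acute, where the count was 1. With detection on all 12 arrays they were 0 for acute, repeated against acute and withdrawal against acute. With no detection filter they were 1 for repeated, repeated against acute and the cocaine mean. With only the groups compared in the fit they were 2, 1 and 1 against saline. Array weights gave 1 for repeated against acute and 2 for withdrawal against repeated. Without the arrays numbered 1, acute had 2, repeated against acute 1 and withdrawal against repeated 1, and the median difference in repeated against saline was 0.13. With the cortical marker sum as a covariate they were 3, 3, 3, 1, 3, 1 and 3.

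With the replicate block, the counts were 4, 5 and 4 against saline (4.09%, 6.18% and 5.48% of probes). They were 4 in repeated against acute (4.55%), 4 in withdrawal against acute (5.31%), 1 in withdrawal against repeated (2.48%) and 5 in the cocaine mean (4.2%). With the replicate block of number 1 against the others they were 2 in acute (3.69%), 5 in repeated against saline (5.65%) and 1 in withdrawal against repeated (2.12%). The block changed no call at the adjusted threshold in the treatment comparisons.

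For arrays numbered 1, the 3 genes became 1 with a floor of 20, with detection on all arrays and with no filter, and 5 without background subtraction, with the offset and with array weights. For the marker slope, the 2 genes became 4 with the mean of a gene's probes, 1 with either replicate block and 0 without the arrays numbered 1, where Kcnc4 kept a slope of 0.65 with an adjusted p of 0.205. The cause was not tested.

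Leaving out 1 array at a time gave 1 to 5 genes in acute, 1 to 4 in repeated and 0 to 4 in withdrawal against saline, 1 to 4 in repeated against acute, 2 to 6 in withdrawal against acute, 0 to 1 in withdrawal against repeated and 1 to 6 in the cocaine mean. It gave 1 to 4 for the array number and 1 to 2 for the slope. The median in repeated against acute ran from -0.039 to 0.043. Genes detected on few arrays lie near the floor, and their fitted differences depend on it.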

Other observations

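Of the 17 genes with a slope on the cortical marker sum at an unadjusted p under 0.05 in limma, Kcna6, a Kv1 subunit, was chosen for its several probes after its values were seen. It had slopes of 0.14 ± 0.03, 0.14 ± 0.03 and 0.47 ± 0.09 on 3 of its probes, and 0.00 ± 0.17 on another probe, detected on 4 arrays. The adjusted p-values of the first 3 were 0.129, 0.111 and 0.0726, short of the threshold. The arrays stood in the same order by Kcna6 and by the marker sum in 4 of 4 groups. For the array number, 17 of the 68 genes had an unadjusted p under 0.05, against 17.2% of all probes.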
